A study of Homo sapiens with 4 samples.

Results

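The zinc finger genes described here form a cluster on chromosome 7, in band 7q11. Their RNA was sequenced in ARP-1 cells, an established line from a human plasma cell cancer, multiple myeloma. The list names 8 genes, chosen by position and with earlier CfzR against WT results of these libraries known: ZNF736, ZNF680, ZNF107, ZNF138, ZNF273, ZNF117, ERV3-1 and ZNF92 in genome order. The table of 15201 genes holds 7 of the 8, and ZNF736 is not analysed here. Of the 7, 5 averaged 1 FPKM or more across all 4 libraries and entered the test of 13411 genes. ZNF117 and ZNF680 stayed below that level, with means of 0.766 and 0.547 FPKM. FPKM counts sequenced fragments relative to transcript length and to the size of the library. Because the CfzR against WT contrast stood behind the choice, its values for the members are given as a description, with no test.

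The libraries came from ARP-1 cells resistant to carfilzomib (CfzR, 2 libraries) and from wild-type ARP-1 cells (WT, 2 libraries). Carfilzomib is an inhibitor of the proteasome, and all 4 libraries are of the same line. How the resistant cells were selected, and whether they are 1 clone, is not given in the sources used here. No label ties the replicates to separate cultures. The p-values below thus rest on differences among 4 libraries alone, and that variation may be technical.

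All 10 plasma cell markers looked up, among them SDC1 and TNFRSF17, had at least 1 FPKM in every library. None of 16 markers of T cells, NK cells, B cells, myeloid cells, stroma, endothelium, erythroid cells or epithelium is in the table, so no level is given for them. The CfzR libraries differed from each other with transcript length more than the WT libraries did. Across genes, which are not independent, the log2 difference of CfzR replicate 1 from CfzR replicate 2 had a Spearman correlation of 0.466 with length and -0.350 with GC share. In the WT pair these correlations were 0.146 and 0.0793. The measured members have AT-rich transcripts, with a median GC share of 35.4%, against 48.3% over all genes tested. Values of each CfzR library and values corrected for length and GC share are therefore given below.

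KRAB zinc finger proteins are the largest family of human transcription factors. Each binds DNA through a row of C2H2 zinc fingers, and the KRAB domain recruits the corepressor TRIM28. TRIM28 in turn brings in the histone methyltransferase SETDB1, heterochromatin protein 1 and histone deacetylases, which silence chromatin, above all at transposable elements. The genes lie in clusters that grew by tandem duplication. Members of the 7q11 cluster belong to the ZNF91 family, whose main home is band 19p12, and ZNF91 itself silences retrotransposons. ERV3-1 is of another origin: it encodes the envelope protein of an endogenous retrovirus.

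Positions are those of GENCODE release 29 on GRCh38, matched by gene ID. The deposited table itself gives no positions. The 8 genes span 64307459 to 65401135 of chromosome 7, a stretch of 1.09 Mb. ZNF680 (64519884 to 64563106), ZNF117 (64971776 to 65006684) and ERV3-1 (64990809 to 65006743) lie on the minus strand. ZNF107 (64666083 to 64711582), ZNF138 (64794388 to 64833681), ZNF273 (64870172 to 64930966) and ZNF92 (65373799 to 65401135) lie on the plus strand. ZNF117 and ERV3-1 thus overlap on the same strand.

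The promoters of most members resemble each other. RefSeq (GRCh38.p14) lists 10 promoters for the 8 genes, each taken from 250 bases before to 50 bases after the start site. Of these 10, 7 carry the same arrangement on the gene's strand: a CCAAT box written CCAATCA, another such box, and then CTTCCGG, a sequence of the kind bound by ETS factors. The arrangement occurs in 29 of 35116 RefSeq promoters (0.083%). Of the 29, 7 belong to members, 1 to the readthrough of ERV3-1 and ZNF117, and 16 to other genes named ZNF, of which 11 are in the 19p12 list. It was read from the members' own sequences, so their share is a description. Taken singly and on either strand, CCAATCA is found in 6.95% of all promoters and CTTCCGG in 10.3%, and in the members' promoters the motifs do not overlap. The 6 promoters of measured members with the arrangement are shown, since these are the start regions of the genes whose values follow. Capitals mark CCAATCA and CTTCCGG. The windows are chr7:64563022-64563321, minus strand, for ZNF680; chr7:64665883-64666182, plus strand, for ZNF107; chr7:64794178-64794477, plus strand, for ZNF138; chr7:64903023-64903322, plus strand, for ZNF273; chr7:65006638-65006937, minus strand, for ERV3-1; and chr7:65373605-65373904, plus strand, for ZNF92.
ZNF680: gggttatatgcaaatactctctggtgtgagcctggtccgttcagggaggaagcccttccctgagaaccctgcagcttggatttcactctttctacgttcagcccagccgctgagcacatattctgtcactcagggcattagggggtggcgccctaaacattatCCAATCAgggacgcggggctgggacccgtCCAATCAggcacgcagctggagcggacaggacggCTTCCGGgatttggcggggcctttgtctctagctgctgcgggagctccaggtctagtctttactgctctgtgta
ZNF107: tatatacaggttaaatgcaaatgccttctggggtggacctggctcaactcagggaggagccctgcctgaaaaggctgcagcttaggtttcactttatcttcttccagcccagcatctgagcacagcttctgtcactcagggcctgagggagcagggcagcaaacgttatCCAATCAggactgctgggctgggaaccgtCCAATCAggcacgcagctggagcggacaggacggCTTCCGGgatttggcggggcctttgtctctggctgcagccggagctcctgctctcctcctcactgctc
ZNF138: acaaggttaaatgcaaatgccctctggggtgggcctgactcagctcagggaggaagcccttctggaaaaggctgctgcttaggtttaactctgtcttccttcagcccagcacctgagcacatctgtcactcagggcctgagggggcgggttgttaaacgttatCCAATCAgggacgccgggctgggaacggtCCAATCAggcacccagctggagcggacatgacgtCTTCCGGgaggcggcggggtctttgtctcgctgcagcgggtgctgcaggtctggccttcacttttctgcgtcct
ZNF273: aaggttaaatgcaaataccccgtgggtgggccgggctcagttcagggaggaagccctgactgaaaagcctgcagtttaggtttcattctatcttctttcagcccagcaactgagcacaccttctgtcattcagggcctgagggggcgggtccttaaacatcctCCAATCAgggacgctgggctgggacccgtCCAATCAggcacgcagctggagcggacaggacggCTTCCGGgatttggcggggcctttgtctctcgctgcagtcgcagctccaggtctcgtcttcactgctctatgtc
ERV3-1: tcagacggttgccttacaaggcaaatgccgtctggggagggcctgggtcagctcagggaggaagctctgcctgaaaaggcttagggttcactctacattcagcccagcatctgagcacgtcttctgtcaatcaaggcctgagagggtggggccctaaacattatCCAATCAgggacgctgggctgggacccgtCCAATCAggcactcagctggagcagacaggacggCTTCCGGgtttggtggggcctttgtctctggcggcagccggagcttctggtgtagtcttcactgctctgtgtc
ZNF92: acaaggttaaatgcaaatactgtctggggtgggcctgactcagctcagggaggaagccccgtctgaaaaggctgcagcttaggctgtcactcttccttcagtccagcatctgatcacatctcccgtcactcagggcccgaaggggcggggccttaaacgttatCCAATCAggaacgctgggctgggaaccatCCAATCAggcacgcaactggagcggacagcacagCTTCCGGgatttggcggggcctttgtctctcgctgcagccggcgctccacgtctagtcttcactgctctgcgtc

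In all 6 the boxes start 29 bases apart, and CTTCCGG starts 34 bases after the nearer box. In ZNF680, ZNF138, ZNF273 and ZNF92 the motifs start at -87, -58 and -24 from the start site. In ZNF107 they start at -81, -52 and -18, and in ERV3-1 at -86, -57 and -23. Identity between the 6 sequences over aligned columns lay between 76.4% and 84.8% in 15 pairs. The ZNF736 promoter was the most distant of the 7, at 57.0% to 61.6%, with its boxes 28 bases apart and CTTCCGG 67 bases after the nearer one. The RefSeq start of ZNF117 lies inside ERV3-1. Its promoter has neither motif, and neither motif is found at the other start of ERV3-1 or at the other start of ZNF273. GENCODE extends ZNF117 to 65006684, within the ERV3-1 promoter printed above.

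**Figure D1:**
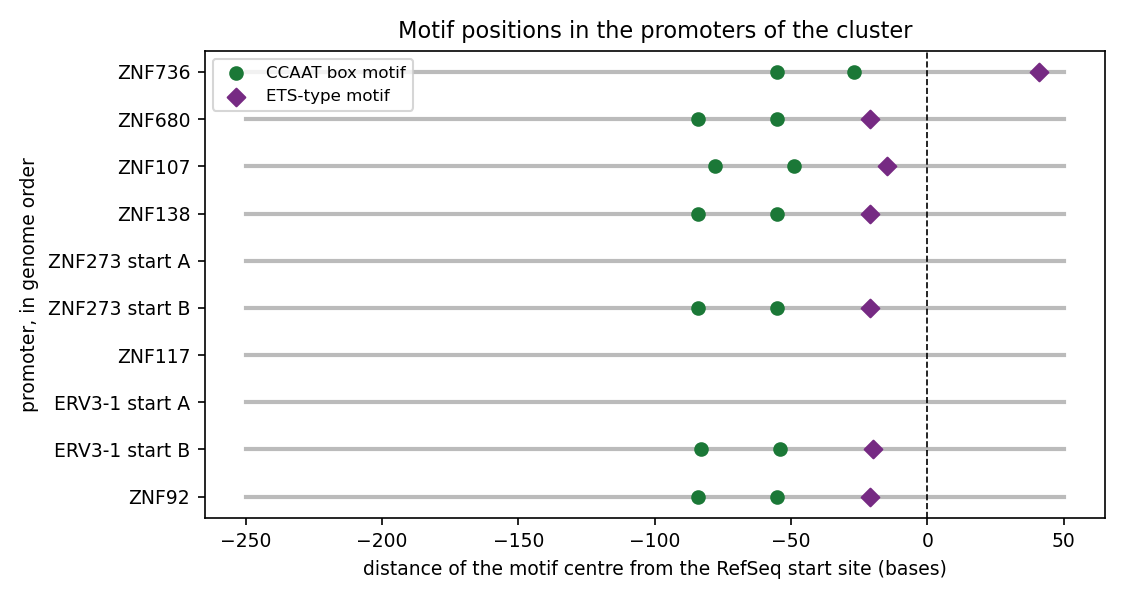
Positions of the CCAAT box motif (circles) and the ETS-type motif (diamonds) in the 10 RefSeq promoters of the cluster, in bases from the start site (dashed line), in genome order from top to bottom. The 6 promoters of measured members that hold the motifs keep them 29 and 34 bases apart.

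A match is a description and shows no binding. The proteins have different numbers of fingers. The number of C2H2 finger patterns in the longest annotated protein was 16 for ZNF107, 12 for ZNF680, 11 for ZNF92, 10 for ZNF273 and for ZNF117, and 2 for ZNF138. ERV3-1 has 0. Identity between pairs of the 7 zinc finger proteins of the list ran from 28.7% for ZNF107 with ZNF138 to 70.8% for ZNF680 with ZNF273, with a median of 46.2% over 21 pairs. At the RNA level, where close relatives could share reads, little sequence was the same. Of all 50-base words in the longest transcript, 4.88% for ZNF273, 3.26% for ZNF680, 1.17% for ZNF92, 0.596% for ZNF107 and 0.456% for ZNF138 also occur in another gene. No 100-base word of these 5 does. ERV3-1 shares 9.10% of its 50-base words with ZNF117, so reads of this overlapping pair are the least certain.

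All 6 measured zinc finger genes were higher in both CfzR libraries than in both WT libraries, by 2.06-fold to 4.97-fold in mean FPKM. ERV3-1, in their midst, overlapped between the groups. Of all 15201 genes in the table, 22.6% were higher in both CfzR libraries. The members were chosen with this contrast in view, so their count says nothing beyond the choice. No gene in the table has a mean below 0.5 FPKM over the 4 libraries. ZNF680 and ZNF117 averaged 0.267 and 0.257 FPKM in WT, so they are in the table only through their CfzR values and could not have shown equal levels. None of the 5 tested members passed an adjusted p of 0.05 in limma, where 0.35% of 13411 genes did, 0.246% as higher and 0.104% as lower in CfzR. Nothing is read from that count either. In bulk RNA, fewer cells expressing a gene and less of its RNA per cell cannot be told apart.

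ZNF107, the member with the most finger patterns, had 14.6 and 8.16 FPKM in CfzR replicates 1 and 2, against 3.46 and 3.28 FPKM in WT replicates 1 and 2. The CfzR libraries differed from each other by 1.80-fold, and the lower of them was still above both WT libraries. The mean was 11.4 ± 4.59 FPKM in CfzR and 3.37 ± 0.133 FPKM in WT (SD, n = 2 each), a 3.38-fold difference. On the log2(FPKM + 1) scale used for all log2 values here, the fold change was 1.45 (SE 0.28). It was the largest among the 7.

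ZNF92, at the distal end of the cluster, had 19.4 and 11.7 FPKM in CfzR, against 6.69 and 5.69 FPKM in WT. The groups did not overlap, and the CfzR libraries again stood apart, with replicate 1 at 1.66 times replicate 2. The means were 15.5 ± 5.43 FPKM in CfzR and 6.19 ± 0.704 FPKM in WT (2.51-fold; log2 fold change 1.17, SE 0.27).

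ZNF273 had 5.97 and 4.94 FPKM in CfzR, against 1.97 and 1.79 FPKM in WT. Its libraries agreed closely within each group, and the difference was 2.91-fold (log2 fold change 1.16, SE 0.22). ZNF138, the zinc finger member with the fewest finger patterns, had 9.10 and 7.34 FPKM in CfzR, against 3.69 and 4.30 FPKM in WT. That was the smallest fold among the zinc finger members, at 2.06-fold (log2 fold change 0.88, SE 0.22).

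ZNF117 and ZNF680 were the low members. ZNF117 had 1.44 and 1.11 FPKM in CfzR, against 0.268 and 0.245 FPKM in WT. Its 4.97-fold difference was the largest fold of the 7, in a gene listed only through its CfzR values and at a level where the log2(FPKM + 1) scale compresses it to 0.85. ZNF680 had 0.880 and 0.774 FPKM in CfzR, against 0.294 and 0.241 FPKM in WT (3.09-fold; log2 fold change 0.53). In WT both ranked in the lowest 2.2% of the genes in the table, and without counts their error from depth is unknown.

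ERV3-1 had 16.8 and 25.7 FPKM in CfzR, against 17.4 and 16.5 FPKM in WT. CfzR replicate 1 lay between the WT libraries, and only replicate 2 was above them. The mean was 21.2 ± 6.30 FPKM in CfzR and 16.9 ± 0.594 FPKM in WT (1.25-fold; log2 fold change 0.28, SE 0.24). Its CfzR libraries were ordered opposite to those of the zinc finger genes: all 6 of these were higher in replicate 1, by 1.14-fold to 1.80-fold, while ERV3-1 stood at 0.653 times replicate 2. The ERV3-1 transcript is the most GC-rich of the 7 (46.2%, against 33.2% to 36.7%). The ratio of ERV3-1 to ZNF117, its overlapping neighbour, was 11.7 and 23.1 in CfzR, against 64.8 and 67.4 in WT. Of the RefSeq promoters of ERV3-1, 1 carries the arrangement and the other does not.

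**Figure D2:**
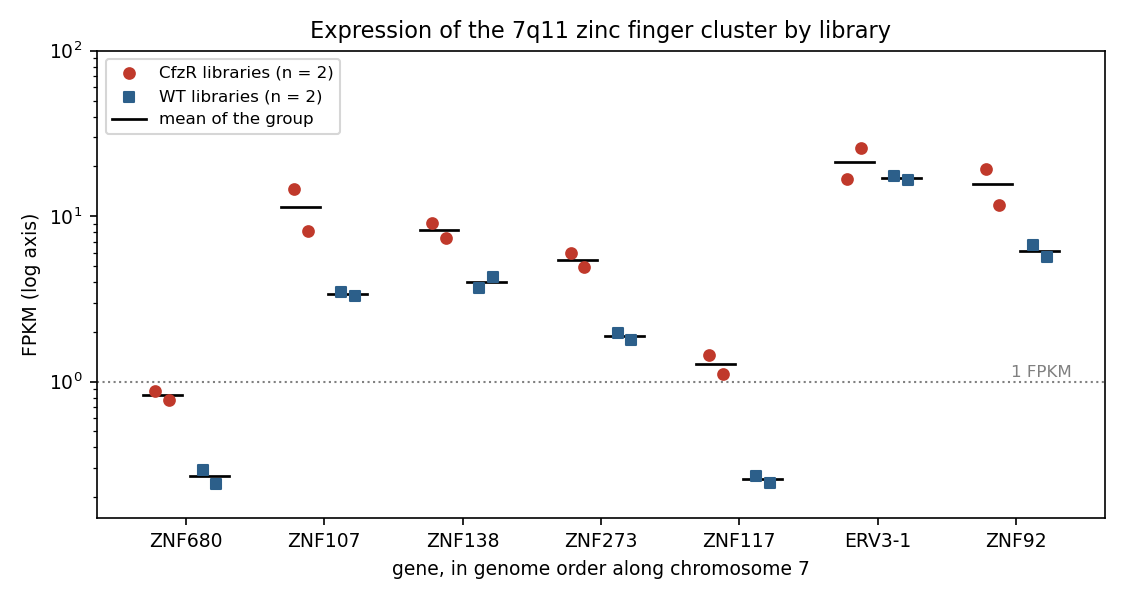
FPKM of the 7 measured members by library on a log axis, in genome order, with CfzR libraries as red circles left of WT libraries as blue squares and black lines at group means (n = 2 each). All zinc finger genes sit higher in CfzR, from 2.06-fold in ZNF138 to 4.97-fold in ZNF117, while ERV3-1 overlaps.

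The order of levels within the cluster was similar in the groups. In CfzR the order of means was ERV3-1, ZNF92, ZNF107, ZNF138, ZNF273, ZNF117 and ZNF680, and the ranges of the leading 4 overlapped from each to the next. In WT the order was ERV3-1, ZNF92, ZNF138, ZNF107, ZNF273, ZNF680 and ZNF117. There the libraries of neighbouring genes did not overlap, except for ZNF680 and ZNF117. The order of ZNF107 and ZNF138 thus differed: the ratio of ZNF107 to ZNF138 was 1.61 and 1.11 in CfzR, against 0.939 and 0.761 in WT. The 6 zinc finger genes together summed to 51.4 and 34.0 FPKM in CfzR, against 16.4 and 15.5 FPKM in WT.

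The median log2 fold change of the 7 members was 0.88, against -0.02 over all genes tested. With CfzR replicate 1 left out it was 0.75, and with CfzR replicate 2 left out 1.02. After the correction for transcript length and GC share it was 0.71, and all 7 values stayed positive. Among single members the correction took ZNF107 to 1.21, ZNF92 and ZNF273 to 0.93, ZNF138 to 0.71, ZNF117 to 0.52, ZNF680 to 0.27 and ERV3-1 to 0.26. Without CfzR replicate 1 the values of ZNF107 and ZNF92 were 1.07 and 0.83, and that of ERV3-1 was 0.57. Without CfzR replicate 2, ERV3-1 had -0.01.

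**Figure D3:**
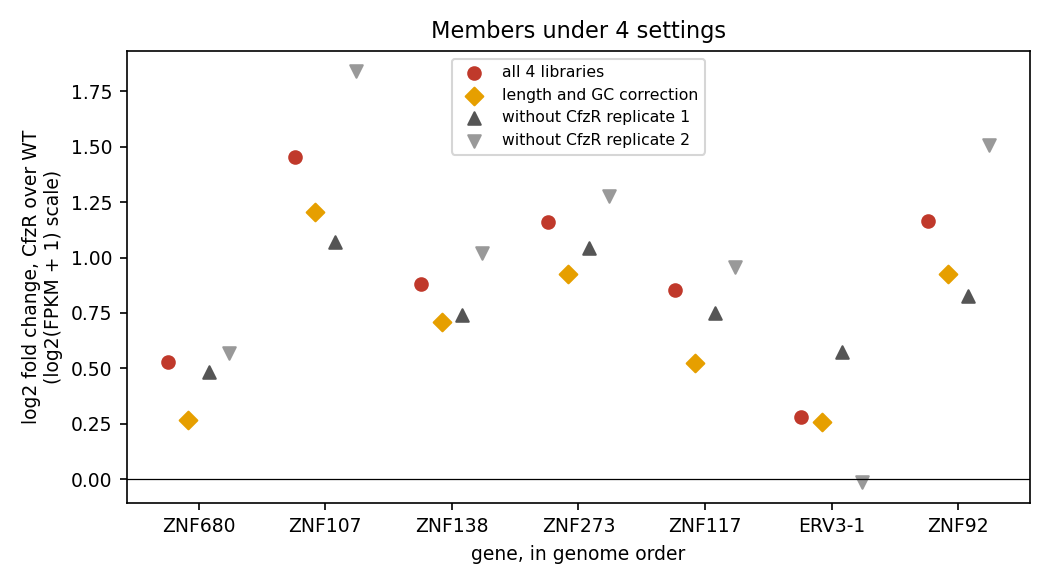
Log2 fold change of CfzR over WT, on the log2(FPKM + 1) scale, for each member with all 4 libraries (circles), after the length and GC correction (diamonds), without CfzR replicate 1 (upward triangles) and without CfzR replicate 2 (downward triangles). ZNF107 ranges from 1.07 to 1.84, and ERV3-1 alone reaches 0.

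Other genes of the region were examined next. Between the first and the last member, 3 other genes were tested. ENSG00000282381, a long noncoding RNA between ERV3-1 and ZNF92, had 2.43 and 3.77 FPKM in CfzR, against 0.713 and 0.679 FPKM in WT (log2 fold change 1.25, SE 0.27, limma adjusted p = 0.152). Its WT mean was 0.696 FPKM, so it entered the test only through its CfzR values. The processed pseudogenes YWHAEP1 and ENSG00000224669 overlapped between the groups, with log2 fold changes of 0.11 and -0.27. Levels of pseudogenes are uncertain, since reads of their parent genes can match them.

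From 2 Mb before the cluster to 2 Mb after it, 24 genes that are no members were tested. Of these, 19 had a positive log2 fold change, against 47.1% of all genes tested. The median log2 fold change of the 24 was 0.575. None passed in limma at an adjusted p of 0.05, and 12, all higher in CfzR, had an unadjusted p under 0.05, against 11.1% of all genes in either direction and 5.32% as higher. Of the 24, 2 passed the filter only through CfzR, and without them 11 of 22 had an unadjusted p under 0.05, with a median of 0.551. All 10 protein-coding genes among them, which lie distal to ZNF92 from 65873166 to 67239519, were higher in both CfzR libraries than in both WT libraries, against 24.3% of the protein-coding genes tested. The median log2 fold change of these 10 was 0.68. With CfzR replicate 1 left out it was 0.69, and with CfzR replicate 2 left out 0.74. Corrected for length and GC share it was 0.71. Their transcripts had a median GC share of 47.1%, close to that of all genes.

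TPST1, which sulfates tyrosines of secreted proteins, had 10.1 and 7.73 FPKM in CfzR, against 4.26 and 3.29 FPKM in WT (log2 fold change 1.05, SE 0.23, limma adjusted p = 0.163). The noncoding RNA LINC02604 had 7.33 and 6.45 FPKM in CfzR, against 3.74 and 2.85 FPKM in WT (log2 fold change 0.88, adjusted p = 0.218). The pseudogene ENSG00000226767 was listed at 0 in 3 libraries and at 4.78 FPKM in CfzR replicate 2. The genes in the rest of this paragraph were named after their values were seen. GUSB, the lysosomal beta-glucuronidase, had 182.5 and 215 FPKM in CfzR, against 129 and 122 FPKM in WT (log2 fold change 0.66, adjusted p = 0.344). SBDS, which acts in the maturation of the large ribosomal subunit, had 55.1 and 59.2 FPKM in CfzR, against 34.5 and 34.5 FPKM in WT (log2 fold change 0.71, adjusted p = 0.241). VKORC1L1, a vitamin K epoxide reductase, had 15.6 and 11.7 FPKM in CfzR, against 6.67 and 7.40 FPKM in WT (log2 fold change 0.86, adjusted p = 0.222).

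On the scale of the chromosome, positive values ran from the cluster over a longer distal stretch. Where they begin on the proximal side cannot be told, since hardly any gene just proximal to the cluster was tested. Genes that start below 60 Mb had a median log2 fold change of -0.03 (215 genes), and 23.3% of them were higher in both CfzR libraries. From 65 to 95 Mb, members left out, the median was 0.53 over 114 genes, with 67.5% higher in both CfzR libraries, against 22.1% of all genes tested. There 8 genes passed in limma, against 2 below 60 Mb, 1 from 95 Mb on and 0.35% of all genes tested. None of the 8 was among the 24 genes around the cluster. The largest log2 fold change of the stretch, 7.01, was that of the gene ABCB1. Leaving out CfzR replicate 1 gave a median of 0.55 in this stretch, leaving out CfzR replicate 2 gave 0.53, and correcting for length and GC share gave 0.55. From 95 Mb on, the median was -0.11 over 312 genes. In windows of 5 Mb the medians were -0.13 at 55 to 60 Mb, 0.28 at 60 to 65 Mb, 0.63 at 65 to 70 Mb, 0.52 at 70 to 75 Mb and 0.48 at 75 to 80 Mb. The window at 60 to 65 Mb holds 7 tested genes, of which 4 are members, and the other 3 had a median of -0.28. These 3, RPL6P20, YWHAEP1 and ENSG00000224669, are processed pseudogenes, so their levels are uncertain. No tested gene starts between CHCHD2, at 56101569, and RPL6P20, at 64141538. The window at 85 to 90 Mb, which holds the drug efflux pump gene ABCB1, had 1.85 over 12 genes, and that at 80 to 85 Mb had -0.34 over 3 genes. These are medians over neighbouring genes and were not tested. The limits at 60, 65 and 95 Mb were not fixed before the values were seen. Medians and shares of these stretches are therefore a description. The files hold no DNA measurement.

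**Figure D4:**
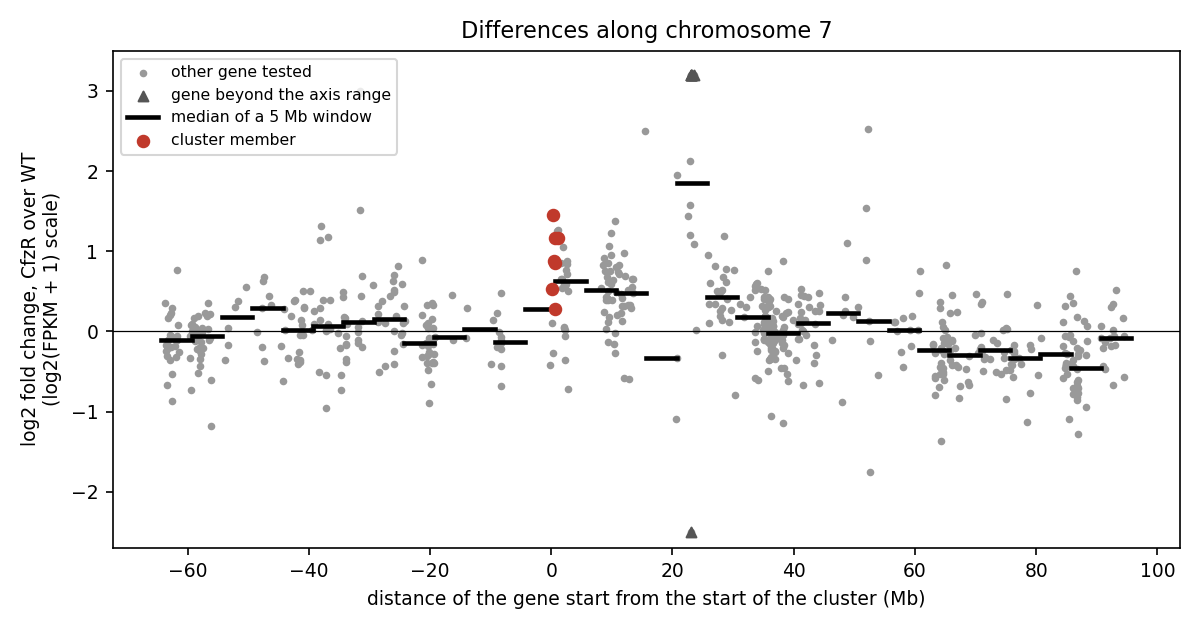
Log2 fold change of CfzR over WT, on the log2(FPKM + 1) scale, of genes on chromosome 7 by distance in Mb from the start of the cluster: members (red), other tested genes (grey, triangles where a value lies beyond the axis) and medians of 5 Mb windows (black lines). By position on the chromosome, not by distance on the axis, the medians are 0.63, 0.52 and 0.48 in the 3 windows from 65 to 80 Mb. In the window from 55 to 60 Mb, again by position, the median is -0.13.

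Relatives of the members on another chromosome were also measured. Of 33 ZNF91-family genes listed for 19p12, 6 are in the table and all 6 were tested; the other genes of that list are not analysed here. Of the 6, 5 were higher in both CfzR libraries than in both WT libraries, against 22.1% of all genes tested, with a median log2 fold change of 0.62. None passed in limma, and 4, all higher in CfzR, had an unadjusted p under 0.05, against 5.32% of all genes tested as higher. ZNF714 had 3.42 and 3.54 FPKM in CfzR, against 0.925 and 1.46 FPKM in WT (log2 fold change 1.04, SE 0.24, adjusted p = 0.188). ZNF430 averaged 0.672 FPKM in WT and so entered the test only through its CfzR values. Without it, 4 of 5 were higher in both CfzR libraries, against 20.8% of the genes that averaged 1 FPKM or more in both groups. Of these 5, 3 had an unadjusted p under 0.05, all higher in CfzR, against 559 of those 12724 genes as higher. ZNF430 had 1.83 and 1.83 FPKM in CfzR, against 0.693 and 0.650 FPKM in WT (0.76, adjusted p = 0.324), and ZNF431 had 2.10 and 2.13 FPKM in CfzR, against 1.33 and 0.739 FPKM in WT (0.63, adjusted p = 0.443).

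ZNF90 was the exception and the most abundant of the 6, with 18.0 and 47.8 FPKM in CfzR, against 45.4 and 72.1 FPKM in WT. Its groups overlapped (log2 fold change -0.93, SE 0.44, adjusted p = 0.491). The 6 transcripts had a median GC share of 37.4%, similar to the members. After the length and GC correction the median was 0.40, and with 5 FPKM as the lowest mean only ZNF90 was left. The promoter arrangement of the cluster occurs in 7 tested genes elsewhere, 3 of them among these 6. Of the 7, 5 were higher in both CfzR libraries, against 22.1% of all genes tested. Without ZNF430, 4 of 6 were, against 20.8% of the genes that averaged 1 FPKM or more in both groups. The median was 0.40, or 0.22 after the correction. Of the 5, 3 are ZNF430, ZNF431 and ZNF675, which were already counted above, so these counts are not independent. The rest of the 7 had log2 fold changes of 0.40 (ZNF267), 0.35 (ZNF519), 0.08 (ZNF195) and -0.27 (BABAM1). The group of 7 was drawn up after the data had been seen.

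Zinc finger genes as a whole lay near 0. For the 197 tested genes named ZNF that are no members, the 6 of 19p12 included, the median on the log2 scale was 0.03, with a sign that changed with the settings. Without the 6 of 19p12 the median was 0.019 over 191 genes. Of these, 100 were positive and 91 negative, against 47.1% positive over all genes tested. None of the 191 passed in limma, and 11 had an unadjusted p under 0.05, with 4 higher and 7 lower in CfzR. Over all genes tested these shares were 11.1% in either direction and 5.32% as higher. Of the 191, 33 were higher in both CfzR libraries than in both WT libraries, against 22.1% of all genes tested. Lower in both were 49, against 22.6%. The 56 genes named ZNF on chromosome 19 outside the 19p12 list had a median of -0.02. No test of the cluster against these genes was made, since values chose its members.

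**Figure D5:**
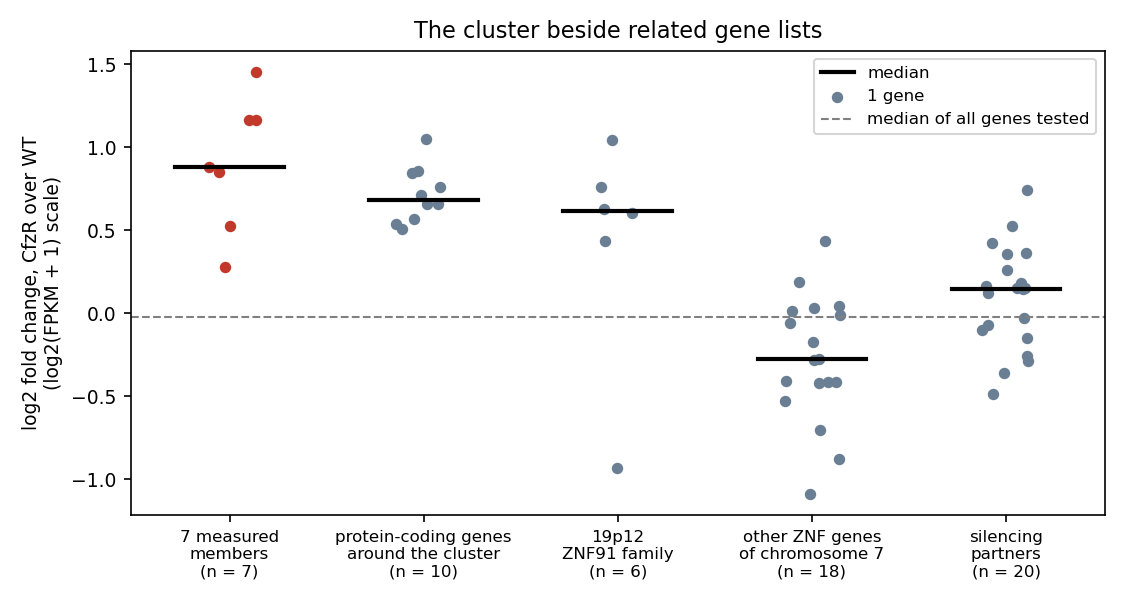
Log2 fold change of CfzR over WT, on the log2(FPKM + 1) scale, of single genes (points) with medians (black lines) for the 7 measured members, the 10 protein-coding genes around them, 6 ZNF91-family genes of 19p12, 18 other ZNF genes of chromosome 7 and 20 silencing partners. The dashed line is the median of all genes tested, at -0.02, and the first 3 medians are 0.88, 0.68 and 0.62.

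Of 21 partners through which KRAB zinc finger proteins silence chromatin, 20 were tested. None passed in limma and 1 had an unadjusted p under 0.05, against 11.1% of all genes tested. Of the 20, 8 were higher in both CfzR libraries than in both WT libraries, against 22.1% of all genes tested. Lower in both was 1, against 22.6%. The median log2 fold change was 0.15, with 12 positive and 8 negative, against 47.1% positive over all genes tested. TRIM28, the corepressor itself, had 189 and 328 FPKM in CfzR, against 314 and 388 FPKM in WT (log2 fold change -0.49, SE 0.33, adjusted p = 0.587). CfzR replicate 2 lay between the WT libraries, so its groups overlapped. The TRIM28 transcript is GC-rich (63.7%). SETDB1 had 21.3 and 21.6 FPKM in CfzR, against 22.5 and 22.8 FPKM in WT (log2 fold change -0.07, adjusted p = 0.886). UHRF1, which reads hemimethylated DNA, had 6.08 and 4.78 FPKM in CfzR, against 3.10 and 2.57 FPKM in WT (0.74, adjusted p = 0.304). ATF7IP, the SETDB1 cofactor, and MPHOSPH8, a subunit of the HUSH silencing complex, stood at 0.52 (adjusted p = 0.468) and -0.36 (adjusted p = 0.611) on the log2 scale.

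The members' median profile over the 4 libraries, as log2 deviations from the gene mean, was 0.58 and 0.32 in CfzR replicates 1 and 2, against -0.48 and -0.44 in WT. The 3 tested genes closest to it by root mean square distance were NBPF1, TES and TXNIP, at 0.0123, 0.0263 and 0.0396. NBPF1, on chromosome 1, had 3.14 and 2.48 FPKM in CfzR, against 0.971 and 1.07 FPKM in WT. TXNIP, on the same chromosome and an inhibitor of thioredoxin, had 187 and 154 FPKM in CfzR, against 94.5 and 93.0 FPKM in WT. TES had 39.3 and 33.4 FPKM in CfzR, against 19.2 and 19.1 FPKM in WT. It lies on chromosome 7 at 116210493, outside the stretch described above. NBPF1 belongs to a family of near-identical copies and its level is uncertain. With 4 libraries, a close profile is a description only.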

How the data were processed

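RNA was measured in 2 CfzR and 2 WT libraries of ARP-1 cells. Per the submitters' processing notes, the tools were STAR and Cufflinks. Tool versions, build, annotation and strand use: not given in the sources used here. FPKM values of 15201 genes were deposited in 1 table, whose lowest row mean is 0.5 FPKM. Without counts, the depth of the libraries is unknown and counting error cannot be stated. Columns named for the drug were taken as CfzR. The remaining columns, named for a control, were taken as WT.

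Symbols were matched by ID for 15027 genes and GENCODE 29 positions for 14496. On the log2(FPKM + 1) scale, the 13411 genes whose mean reached 1 FPKM were tested: limma 3.58.1 in R 4.3.3 compared the groups with a mean-variance trend and Benjamini-Hochberg adjustment (two-sided, threshold 0.05). The fit was tested on simulated data. The length and GC correction removed splines with 4 degrees of freedom of log2 longest-transcript length and GC share from each library's deviations, over 12896 tested genes. Promoters are RefSeq's, and proteins were translated from GENCODE 29 and aligned with Biopython 1.88. A finger was counted where 2 cysteines with 2 residues between them were followed after 12 residues by 2 histidines 3 to 5 residues apart.

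The members and lists were chosen with earlier results of these data known. Named are all members, tested genes inside the cluster, the 3 neighbours with the largest absolute log2 fold change, the extremes of the 19p12 and partner lists, TRIM28, SETDB1 and the 3 genes of closest profile. The alternatives changed the pseudocount to 0.1 or 5, dropped the filter or set it to 5 FPKM, or used scaling by trimmed means of M-values, quantile normalization, no trend, a replicate block, the length and GC correction and leaving out each library. Lists were also counted over genes averaging 1 FPKM or more in both groups, a choice made after seeing the data.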

Additional observations from a re-analysis of the deposited data

How the results depend on the processing

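Over all genes, 47 passed, with 27 under a filter at 5 FPKM, 16 without CfzR replicate 1, 17 without CfzR replicate 2, 260 without WT replicate 1 and 148 without WT replicate 2. In the last 4 fits 1 group is a single library, assumed to vary like the other group. With the replicate number as a block, 1242 of 13411 genes passed, or 640 of 12896 with the length and GC correction. They included 4 of the 5 tested members (3 with the correction), against 0 in the same fits of all 4 libraries without the block. The members were chosen with this contrast in view, so nothing is read from their calls. The block also called 9 higher and 1 lower of the 24 genes around the cluster (11 and 0 with the correction), 1 higher and 1 lower of the 19p12 genes (0 and 1), 1 higher of the partners (0) and 2 higher and 7 lower of other ZNF genes (0 and 4). With the block, each gene has only 1 residual degree of freedom. The labels give no pairing, and same-numbered libraries' deviations correlated at 0.252. The members' median of 0.88 was 1.34 with a pseudocount of 0.1 and 0.55 with 5, which follows from the scale, and 0.75 to 1.02 with 1 library left out. The 19p12 median was 0.91 and 0.25 with these pseudocounts, 0.40 after the length and GC correction with or without the replicate block, 0.52 to 0.71 with 1 library left out and -0.93 under the filter at 5 FPKM, where 1 gene was left. The median of the 24 genes around the cluster, 0.575, was 0.39 to 0.64 with 1 library left out. The partners' median was 0.036 after the length and GC correction with or without the replicate block, 0.23 under quantile normalization and 0.062 to 0.152 with 1 library left out. For other ZNF genes the median was -0.069 under the filter at 5 FPKM, -0.042 after the length and GC correction with or without the replicate block, and -0.029 to 0.028 with 1 library left out. Apart from effects of construction named here, the cause was not tested. Single members kept a positive sign in every alternative that gave them a value, except ERV3-1 without CfzR replicate 2 (-0.01). Depth is unknown, so low members such as ZNF680 have no counting error.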

Other observations

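Away from the cluster, zinc finger genes of chromosome 7 mostly had negative log2 fold changes, and those of a distal group near the end of the long arm all did. Outside that group ZNF277 and ZNF800 were negative, at -0.88 and -0.17. There ZNF316, ZNF12, ZNF394, ZNF655, ZNF3 and ZNF789 ran from -0.01 (ZNF316) to 0.43 (ZNF789). The 18 tested genes named ZNF that are no members had a median log2 fold change of -0.28. Of the 18, 13 were negative and 5 positive, against 47.1% positive over all genes tested. None passed in limma, and 4, all lower in CfzR, had an unadjusted p under 0.05. Of all 13411 genes tested, 11.1% did so in either direction, and 779 as lower. Lower in both CfzR libraries than in both WT libraries were 9 of the 18, against 22.6% of all genes tested, and higher was 1, ZNF789, against 22.1%. The genes named here were chosen after their values were seen. ZNF467, of the distal group near the end of the long arm, had 3.74 and 5.23 FPKM in CfzR, against 10.4 and 10.7 FPKM in WT (log2 fold change -1.09, SE 0.22, adjusted p = 0.138). ZNF777, of the same group, had 8.53 and 8.33 FPKM in CfzR, against 12.8 and 12.4 FPKM in WT (-0.53, adjusted p = 0.369). ZNF277 had 13.7 and 16.9 FPKM in CfzR, against 26.6 and 31.2 FPKM in WT (-0.88, adjusted p = 0.189). The 5 Mb window from 145 to 150 Mb, which holds ZNF467 and ZNF777, had a median of -0.28 over 19 genes. Several more of the 18 genes lie in it, so its median is not independent of theirs. The windows from 130 to 145 Mb hold none of the 18, and their medians were -0.29, -0.23 and -0.34. The window at 150 to 155 Mb, which holds ZNF775, had -0.45 over 30 genes. Negative values in this part of the chromosome were thus not particular to zinc finger genes. The 18 transcripts had a median GC share of 54.0%, against 35.4% for the members.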
